A study of Mus musculus with 8 samples.

Results

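The region described here is a stretch of mouse chromosome 10 with a gain called in 2 of 8 genomic DNA samples, M12 and M12.53. Its members are all array positions with a mm9 start between chr10:77000000 and chr10:83000000, which gave 843 positions of 221455 on the autosomes, 789 of them measured on all 8 arrays. An array position is the place of 1 probe on the genome. The region was selected on the log2 ratios of M12 and M12.53, so its levels on those 2 arrays are a description and were not tested.

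Copy number was measured by comparative genomic hybridisation on Agilent arrays, 1 array for each DNA, with Cy5 on the sample DNA and Cy3 on the reference, which came from wild-type Balb/c mice without disease. All 8 samples came from Balb/c mice that carried SEC31A-JAK2, a fusion that contains the tyrosine kinase JAK2, and that had received a bone marrow transplant. T-lymphoblastic lymphoma (T-LBL) of primary mice was taken from the spleen in M7 and M9 and from a neck lymph node in M12 (3 arrays), and M10 was a primary myeloid hyperplasia from bone marrow. The 4 secondary T-LBL came from the pancreas, except that of M12.50, which came from a neck lymph node; M12.49, M12.50, M12.52 and M12.53 were all derived from mouse 12 and are related to M12 and to each other, so they are not independent tumours. No sample was hybridised more than once. The labels do not say how pure the tumour DNA was, and a gain in a part of the cells and a smaller gain in all of them cannot be told apart on these arrays.

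In array comparative genomic hybridisation a segment with more DNA in the sample than in the reference gives a ratio above 1, or a log2 ratio above 0, over a run of neighbouring positions. Signals on such arrays also drift over long stretches with base composition and gene content, a property known as the wave, which makes gene-dense segments harder to read than gene-poor ones. The area of chromosome 10 between Mier2 and Zbtb7a is one of the gene-rich blocks of the mouse genome. It holds Stk11, a kinase that activates AMPK and a tumour suppressor, Tcf3, a transcription factor needed for lymphocyte development, Dot1l, a histone methyltransferase, Gadd45b, a stress response gene, and the granule protease genes Elane, Prtn3 and Gzmm.

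In the RefSeq gene table, which is on assembly GRCm38.p6, 92 protein-coding genes ran from Mier2 to Zbtb7a over 1612 kb, or 57.1 genes per Mb, against 8.40 per Mb over all autosomes. Just before Mier2 in the same gene order stood a run of 13 protein-coding genes from Olfr1356 to Vmn2r83 over 645 kb, of which 12 were olfactory or vomeronasal receptor genes, which encode sensors of odours and pheromones. The array columns used here name no gene, and the gene table is on another build than the array, so no array position was assigned to a gene. The run of receptor genes was named after the values were seen. The 2 kinds of DNA also differed in base composition: over the 250 bases before the gene start, the promoters of the block had a median G and C content of 61.6% and 16 CG pairs (77 promoters found), those of the receptor run had 39.6% and 1 CG pair (11 promoters), and all 25748 autosomal promoters in the RefSeq table had 52.4% and 6 CG pairs. The promoters of Stk11, from the block, and Vmn2r83, from the receptor run, are printed to show this contrast, with CG pairs in capitals (250 bases before the start, 5′ to 3′, plus strand of the RefSeq GRCm38.p6 chromosome). The arrays did not measure promoters.
Stk11: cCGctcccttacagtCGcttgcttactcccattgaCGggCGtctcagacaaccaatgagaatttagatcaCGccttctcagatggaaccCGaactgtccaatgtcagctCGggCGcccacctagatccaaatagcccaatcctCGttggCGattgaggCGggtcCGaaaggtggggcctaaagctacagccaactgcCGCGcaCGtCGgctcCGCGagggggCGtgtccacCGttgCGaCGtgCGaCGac
Vmn2r83: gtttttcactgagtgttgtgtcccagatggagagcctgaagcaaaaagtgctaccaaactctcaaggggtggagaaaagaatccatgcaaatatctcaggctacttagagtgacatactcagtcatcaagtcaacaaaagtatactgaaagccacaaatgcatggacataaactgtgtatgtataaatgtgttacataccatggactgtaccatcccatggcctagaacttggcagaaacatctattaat
The Stk11 promoter had 24 CG pairs and 59.6% G and C, and the Vmn2r83 promoter had 0 CG pairs and 40.4%.

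A pair of overlapping gains were called in the window, 1 in M12.53 and 1 in M12, and the other 6 arrays had no call there. A call is a run of at least 5 positions whose segment mean is 0.25 or more away from 0. In M12.53 the call ran over chr10:78482731-80764528 (mm9), 2282 kb and 398 measured positions, with a mean log2 ratio of 0.48 ± 0.02 (SE over positions), or 1.39 times the reference. In M12 it ran over chr10:79059568-81052572, 1993 kb and 407 positions, with a mean of 0.26 ± 0.01, or 1.20 times the reference. After correction of the ratios for density of array positions the M12 call was lost. The mean of M12 was then 0.14 in place of 0.22 over the span of the M12.53 call. The M12 call was also lost at a threshold of 0.4, which lies above its mean of 0.26. The M12.53 call was made under both. With normexp, another background correction, the M12 call was kept, with a mean of 0.36 over 423 positions. For comparison, 3 copies against 2 in every cell would give a log2 ratio of 0.58 on an array without compression, and compression was not measured here. Each was the only gain called on the autosomes of its array, beside 6 losses.

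The calls shared 351 positions, which were 88.0% of the M12.53 call and 86.2% of the M12 call, but neither end coincided. M12.53 began 577 kb before M12 and M12 ended 288 kb after M12.53. The ends of both calls cut the window into 5 stretches: 195 positions before both calls, 48 positions called in M12.53 only (chr10:78482731-79050217), 351 positions called in both (chr10:79059568-80764528), 56 positions called in M12 only (chr10:80771458-81052572), and 193 positions after both. These cuts were made after the values were seen and rest on the ends of the main setting. Most settings tried kept these ends, but some moved them. With a penalty of 3 or normexp the M12.53 gain began at chr10:78514518. It ended at chr10:80788911 after density correction and at chr10:80818491 with normexp. The M12 call ran over chr10:79080599-81144173 with normexp.

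The 48 positions called in M12.53 only carried the highest ratio of the region. There M12.53 had a mean log2 ratio of 0.68 ± 0.05 (SE over 48 positions), 1.60 times the reference, with 97.9% of its positions above 0. Of the primary arrays, M7 had 0.09 ± 0.08, M9 had -0.03 ± 0.04, and the others -0.05 ± 0.05 in the myeloid M10 and -0.09 ± 0.04 in M12. The other secondary lymphomas had -0.06 ± 0.04 (M12.49), -0.03 ± 0.05 (M12.50) and -0.08 ± 0.06 (M12.52). The mean of M12.53 stood above the means of all 7 others. The stretch was cut where only M12.53 had a call, so this order followed from the choice. M12, the primary lymphoma of the mouse of origin, lay below 0. The labels do not say which tissue of mouse 12 was passed on to M12.53.

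In the 351 positions called in both arrays, M12.53 had a mean log2 ratio of 0.45 ± 0.02 and M12 had 0.26 ± 0.01 (SE over positions). M7 had 0.04 ± 0.03, M9 -0.16 ± 0.02, M10 -0.03 ± 0.01, M12.49 0.02 ± 0.01, M12.50 -0.12 ± 0.01 and M12.52 0.12 ± 0.02. The other secondary lymphomas of mouse 12 thus ranged from -0.12 to 0.12, and M12.52 had the third highest value of the 8 arrays. In M12.53 this stretch was 0.24 lower than the 48 positions before it, whereas in M12 it was 0.35 higher.

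In the 56 positions called in M12 only, M12 kept a mean log2 ratio of 0.25 ± 0.03, close to its level in the shared stretch, and M12.53 fell to -0.11 ± 0.04. The others had 0.07 ± 0.07 in M7, -0.13 ± 0.03 in M9, -0.07 ± 0.04 in M10, 0.02 ± 0.03 in M12.49, -0.12 ± 0.03 in M12.50 and 0.09 ± 0.05 in M12.52. M12.53 therefore lay among the arrays without a call. Outside both calls, M12.53 had 0.01 ± 0.02 before them and -0.01 ± 0.02 after them, and M12 had 0.08 ± 0.02 and 0.06 ± 0.02.

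**Figure D1:**
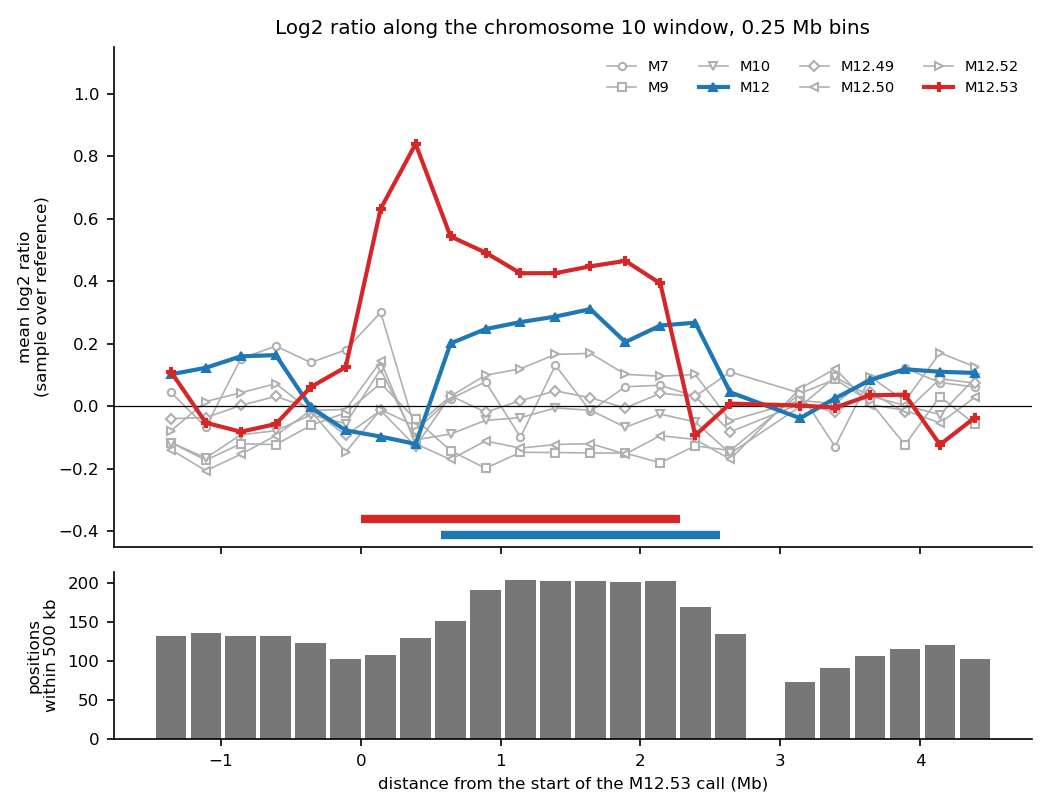
Mean log2 ratio of sample over reference in bins of 0.25 Mb (y axis, upper panel) against the distance from the start of the M12.53 call in Mb (x axis), 1 line for each of the 8 arrays, with the number of array positions within 500 kb of each bin's positions below; bins with under 5 positions are left out. The thick red and blue bars mark the calls of M12.53 and M12: M12.53 stands highest in its first 567 kb, where M12 lies below 0, and M12 stays near 0.25 to the end of its own call, where M12.53 has returned to near 0.

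The ends were compared over the 10 positions on either side. At the start of its call M12.53 rose from 0.07 ± 0.07 to 0.36 ± 0.08, across a gap of 1.74 kb between neighbouring positions, and at its end it fell from 0.44 ± 0.06 to 0.14 ± 0.11 across 6.99 kb. At the start of its call M12 rose from 0.02 ± 0.08 to 0.24 ± 0.11 and at its end it fell from 0.21 ± 0.10 to 0.03 ± 0.10. The steps of M12 at the ends of its call were thus not much larger than the errors on either side. Arrays without a call had steps there too. At the start of the M12 call the step was 0.40 in M12.52, 0.22 in M12, 0.17 in M12.49 and 0.14 in M10. It was 0.10 in M9, 0.09 in M7, 0.06 in M12.50 and -0.24 in M12.53. At the end it was -0.20 in M7, -0.18 in M12, -0.17 in M12.52 and -0.13 in M12.49. There M12.50 had -0.03, M9 -0.01, M10 0.04 and M12.53 0.10. The start of the M12 call fell where the density of positions rose. The number of array positions within 500 kb averaged 118 in the 48 positions called in M12.53 only and 195 in the shared stretch, against an autosomal median of 107.

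Means over 10 consecutive positions, called windows below, showed how evenly the gain ran. In M12.53, 40 of the 83 windows of the region had a log2 ratio of 0.25 or more, against 0.709% of all 22135 autosomal windows of that array, and they were all 5 windows of the M12.53-only stretch and all 35 of the shared stretch. Within its call the windows of M12.53 ranged from 0.27 to 0.95 and the highest window outside it had 0.18. In M12, 23 windows reached 0.25 against a background of 1.62%: 20 of 35 in the shared stretch, 2 of 6 in the M12-only stretch, 1 of 19 before and 0 of 18 after. In M12 the windows of the shared stretch ranged from 0.06 to 0.41, against 0.27 to 0.60 in M12.53, and M12.53 was the higher of both in 31 of 35.

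The other arrays gave few such windows. M7 had 9 of 83 (background 14.4%) and M12.52 had 7 (2.71%), of which 6 lay in the shared stretch. M9 (background 0.574%), M10 (0.669%), M12.49 (0.244%) and M12.50 (0.768%) had 0 of 83 each. M7 and M12.52 were the noisier arrays, with an SD of 0.47 and 0.43 between neighbouring positions against 0.22 to 0.28 on the other 6.

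The 3 highest windows of M12.53 all lay in or at the end of the M12.53-only stretch. The highest, chr10:78723736-78930805, had a log2 ratio of 0.95 ± 0.12 (SE over 10 positions) in M12.53 and -0.26 in M12. The next were chr10:79010387-79066529, with 0.75 ± 0.09, and chr10:78940428-79007321, with 0.68 ± 0.08, where M12 had 0.06 and -0.06. The 3 lowest were chr10:80818432-80854263 at -0.21 ± 0.07, chr10:77674923-77755089 at -0.21 ± 0.10 and chr10:80939018-80981371 at -0.19 ± 0.08. Of these the first and the last lay in the M12-only stretch, where M12 had 0.28 and 0.23.

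Each dye was then read alone, as the log2 signal of a dye centred on its array's autosomal median, minus the median of the other 7 arrays at the same position. This shows whether a ratio comes with more sample signal or with less reference signal. In the M12.53-only stretch the sample dye of M12.53 was 0.58 ± 0.05 above the other arrays and its reference dye was 0.13 ± 0.09 below them. In the shared stretch its sample dye was 0.77 ± 0.01 above and its reference dye was also above, by 0.37 ± 0.03. In the M12-only stretch the reference dye stood at 0.47 ± 0.08 and the sample dye at 0.35 ± 0.06, which left the ratio below 0. The reference dye of M12.53 was thus high in the dense stretches and not in the M12.53-only stretch, while its sample dye was high in all 3.

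For M12 the sample dye deviated by 0.18 ± 0.02 in the shared stretch and by 0.33 ± 0.04 in the M12-only stretch, and the reference dye by -0.04 ± 0.02 and 0.07 ± 0.04. In the M12.53-only stretch its sample dye was at -0.14 ± 0.05. With each dye corrected for density, the sample dye of M12 over the span of the M12.53 call dropped from 0.14 to 0.05 and the reference dye of M12.53 from 0.31 to 0.19, while the sample dye of M12.53 went from 0.75 to 0.68. The dyes of the arrays without a call moved in the shared stretch too. The reference dye was at 0.35 in M7, 0.13 in M10 and 0.19 in M12.50, and at -0.25 in M9, -0.25 in M12.49 and -0.28 in M12.52. The sample dye was at 0.40 in M7, 0.01 in M10 and -0.06 in M12.50, and at -0.46 in M9, -0.27 in M12.49 and -0.21 in M12.52. Both dyes had the same sign there in 6 of 8 arrays, M12 and M12.50 being the others.

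**Figure D2:**
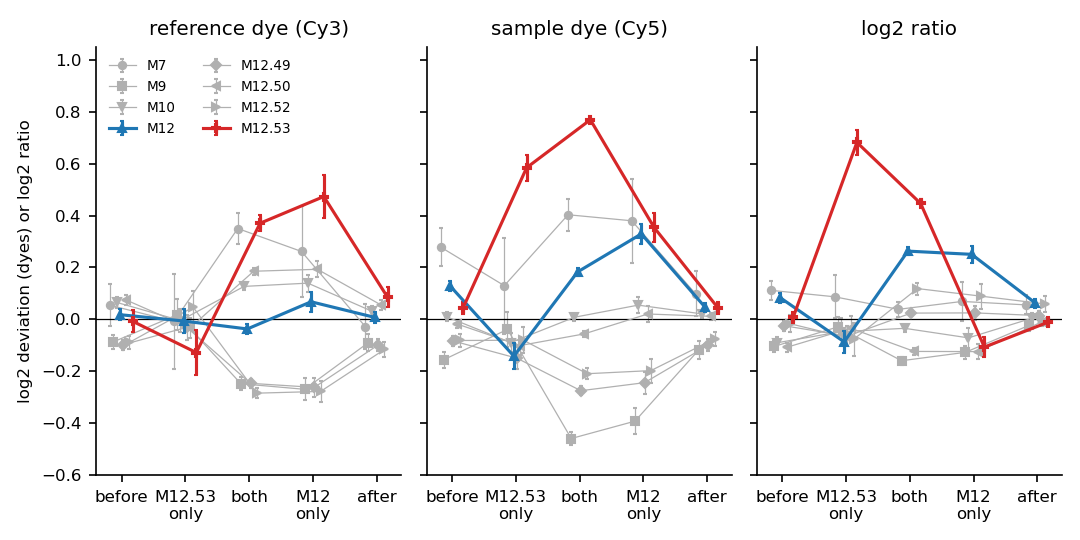
Log2 deviation of the reference dye and of the sample dye from the median of the other 7 arrays, and the log2 ratio (y axes, mean ± SE over positions), in the 5 stretches of the window (x axis) for the 8 arrays. M12.53 is high in the sample dye in all 3 stretches that carry a call, and high in the reference dye in the shared and the M12-only stretch but not in the M12.53-only stretch.

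M12.53 was among the dimmer arrays in the reference dye, with a median net signal of 68 against 165 in the sample dye, and Feature Extraction multiplied its reference signals by 16.0 and its sample signals by 6.40. M12 was the brightest, with 347 and 394. In the M12.53 call 99.5% of the reference spots and 100% of the sample spots of M12.53 were well above background. On M7 only 71.4% of the reference spots of the segment were. The part of signal strength in the ratios was not tested.

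Density of array positions was taken as the measure of how gene-rich a stretch is, since designs of this kind place more probes in genes. The M12.53 call averaged 186 positions within 500 kb, at the 98.5th percentile of autosomal positions, and the shared stretch was at the 99.3rd. Over 11020 autosomal stretches of 20 positions outside the region, the log2 ratio rose with density in M12 (Spearman's rho 0.42) and M7 (0.21), was nearly flat in M12.52 (0.04), and fell in M12.49 (-0.12), M10 (-0.22), M12.53 (-0.26), M9 (-0.40) and M12.50 (-0.44). These are descriptions within an array, since stretches are not replicates and share their library. From the sparsest to the densest of 10 equal classes of positions outside the region the median ratio rose by 0.13 in M12 and fell by 0.06 in M12.53. Over the 1977 positions outside the region that were as dense as the top 1% of all autosomal positions, the median was 0.11 in M12 and -0.07 in M12.53. The part of density in the levels of M12 and M12.53, on which the region was chosen, was not tested.

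**Figure D3:**
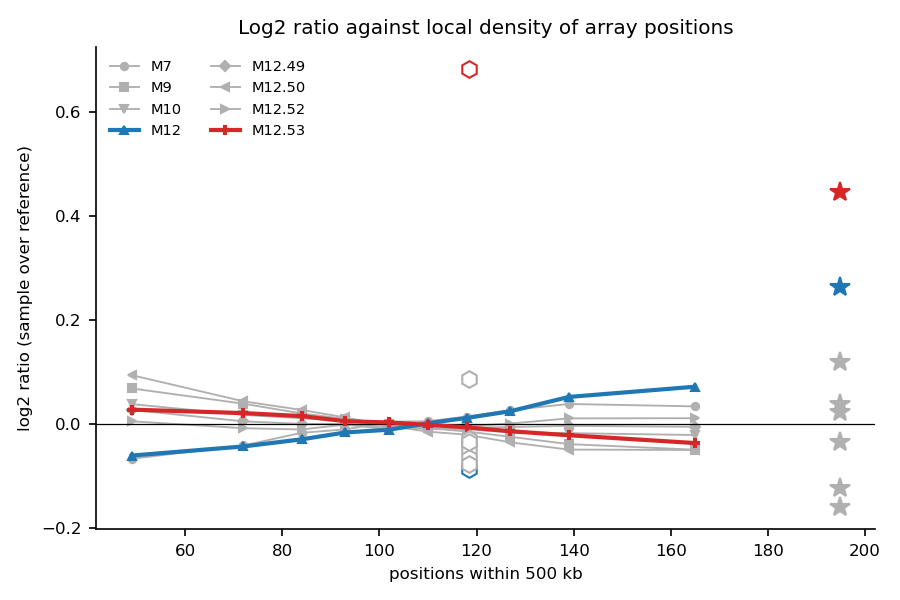
Median log2 ratio of sample over reference in 10 classes of autosomal positions (y axis) by the number of array positions within 500 kb (x axis), 1 line for each array. Hexagons give the mean of the M12.53-only stretch and stars that of the shared stretch: both M12.53 symbols stand far above its falling line, and the M12 star stands above its rising line.

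The region was next set against the 50 non-overlapping autosomal stretches with the same number of positions that were nearest to it in density. In the shared stretch M12.53 had a log2 ratio of 0.45, while the 50 stretches had a median of -0.04 and ranged from -0.12 to 0.07. None of the 50, and none of all 618 autosomal stretches of that length, reached it. M12 had 0.26, while its 50 stretches had a median of 0.09 and ranged from -0.15 to 0.18, and none of the 618 reached it. The shared stretch was cut from the calls of M12.53 and M12, while the other stretches were not chosen on the values. For these arrays the counts are thus a description and no test. Few stretches were as dense as this one, with 195 positions within 500 kb. The densest of the 50 had 197, where M12 had 0.02, the next had 185 and the sparsest 145. All but the densest were thus sparser than the shared stretch, and the ratio of M12 rose with density over the autosomes. How far this moved the medians was not tested.

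In the M12.53-only stretch the density was ordinary and the matching on density close, between 118.0 and 118.8 against 118.4. Base composition was not matched. M12.53 had 0.68 there against a median of -0.00 and a range of -0.15 to 0.13 in the 50 stretches, and the highest of all 4585 stretches of that length had 0.23. M12 had -0.09 against a median of 0.01, and 44 of the 50 stretches lay at or above it. In the M12-only stretch M12 had 0.25 against a median of 0.08, and the highest of all 3929 stretches also had 0.25, just below it. Both stretches were cut from the calls on these arrays, so these ranks are descriptions too.

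The arrays without a call were not all ordinary in the shared stretch. M12.52, at 0.12, lay above all 50 stretches of like density (median -0.02) and 1 of all 618 reached it. M12.49, at 0.02, lay above all 50 and below 14 of the 618. M9, at -0.16, lay below all 50 and below all 618. M12.50, at -0.12, had 45 of 50 stretches at or above it, M7 had 43 and M10 had 23. A position at the edge of the stretches of like density was thus shared by arrays with and without a call, in both directions, whereas the size of the excess was 0.49 in M12.53, 0.17 in M12, 0.13 in M12.52 and 0.04 in M12.49.

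**Figure D4:**
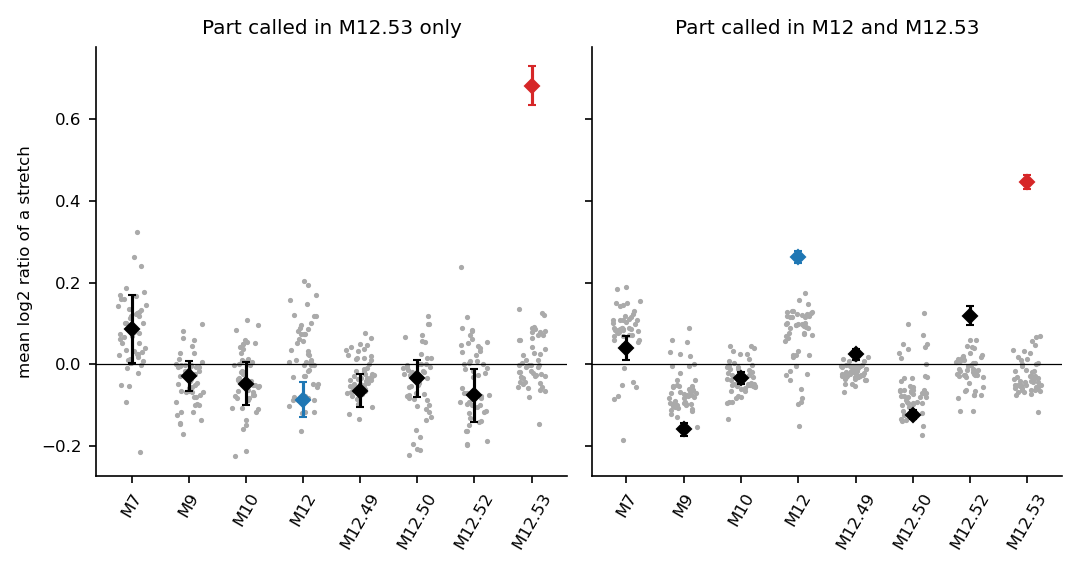
Mean log2 ratio (y axis) of the M12.53-only stretch (left) and of the shared stretch (right) on each of the 8 arrays (x axis, diamonds, bars ± SE over positions), with the 50 autosomal stretches of nearest density as grey points. M12.53 stands clear of its grey points in both panels, and M12 does so in the right panel by a smaller distance.

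The dyes were compared with these stretches in the same way. In the shared stretch the sample dye of M12.53, at 0.77, was above all 618 stretches, the highest of which had 0.28, and its reference dye, at 0.37, was above them too (highest 0.32). In the M12.53-only stretch its sample dye, at 0.58, was reached by 1 of 4585 stretches, and its reference dye, at -0.13, had 39 of 50 stretches of like density at or above it. For M12 the sample dye in the shared stretch, at 0.18, was reached by 3 of the 50 and 5 of the 618. In the M12-only stretch the sample dye of M12, at 0.33, was reached by none of 3929. The dyes make up the ratios from which the stretches were cut, so these counts were not taken as tests.

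M12.53 was next set against the arrays that shared a scan day or a slide with it. None of them had a call in the region, so its higher level over its own call followed from the choice. The differences are descriptions, and a part of slide or scan day in them was not tested. M12.53 minus M10 and M12.53 minus M12.50, both of the same scan day, were 0.51 ± 0.03 and 0.59 ± 0.02 over the M12.53 call (SE over positions). M12.53 minus M12.52, on the same slide but scanned on another day, was 0.38 ± 0.03. In the M12.53-only stretch the 3 differences were 0.73 ± 0.09, 0.72 ± 0.08 and 0.76 ± 0.10, and in the M12-only stretch they were -0.04 ± 0.07, 0.02 ± 0.06 and -0.20 ± 0.08. M12 was the only array of its slide and its scan day, so that slide and array cannot be told apart for it.

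By group, the mean log2 ratio over the M12.53 call was 0.04 ± 0.18 (SD, n = 3) in the primary T-LBL and 0.12 ± 0.25 (SD, n = 4) in the secondary T-LBL, with 1 array of each group chosen for its high value. Without M12.53 the secondary mean was -0.00. In the M12.53-only stretch the means were -0.01 ± 0.09 and 0.13 ± 0.37. The groups overlapped in both, and the single myeloid array, M10, had -0.04 and -0.05.

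The 6 arrays that the choice of the region did not use were tested for a shift of their own. Their mean log2 ratio over the M12.53 call was -0.02 ± 0.09 (SD, n = 6), with 3 of 6 above 0 (two-sided exact sign-flip permutation test, p = 0.5625, adjusted p = 0.9375 over 3 measures). Against the flanks the mean was -0.01 ± 0.05 (exact p = 0.625, adjusted p = 0.9375), with 3 of 6 above 0, and against stretches of equal density it was -0.0003 ± 0.07 (exact p = 1, adjusted p = 1), with 2 of 6 above 0. The smallest p that 6 arrays allow is 0.03125. These tests treat M12.49, M12.50 and M12.52, which share an origin, as independent.

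Over all autosomal windows, limma was fitted to the 5 lymphomas outside the choice of the region (M7, M9, M12.49, M12.50 and M12.52) against the reference. It called 0 of the 83 windows of the region at an adjusted p under 0.05, where 0.00904% of all windows were called, and the smallest adjusted p in the region was 0.287. At an unadjusted p under 0.05 there were 10 of 83 windows, 5 higher and 5 lower, against a background of 12.6%. Without M7, 7 of the 83 windows were called, against 15.6% of all windows (3455 in place of 2). The median difference over the windows of the M12.53 call was -0.03, against -0.00 over all windows.

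Between the 3 secondary (M12.49, M12.50, M12.52) and the 2 primary lymphomas (M7, M9), limma called 0 of 83 windows, against a background of 0.0904%, and the smallest adjusted p in the region was 0.659. At an unadjusted p under 0.05 there were 2, 1 higher and 1 lower, against 6.23%. Without M9, 10 of the 83 windows were called, against 22.1% of all windows (4891 in place of 20), in a fit in which M7 is the only primary array and is assumed to vary like the others. With the scan day as a block 8 of the 83 were called, against 1.78% of all windows (394), with a smallest adjusted p of 0.00482 in limma. In that fit M7 and M12.50, each the only one of the 5 lymphomas on its scan day, did not enter the difference. It rested on M9 against M12.49 and M12.52, which share a scan day. The median difference over the windows of the M12.53 call was 0.23 in place of 0.05. M9 had the lowest log2 ratio of all arrays over that call, at -0.14. The fit with the scan block thus sets a single low primary array against 2 secondary ones and does not describe the groups. That fit had 1 residual degree of freedom. The 5 windows of the M12.53-only stretch had no adjusted p under 0.05 in either comparison.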

How the data were processed

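Genomic DNA of 8 samples was hybridised on 1 Agilent array each. Both dyes are given as processed signal intensities in the deposited files, from which Feature Extraction had subtracted background, per the file headers, and scaled each dye by 1 factor. The deposited log10 ratio column holds Cy5 over Cy3 of the same signals. The file headers name version 10.5.1.1 and the submitters' processing notes 9.1.1. Positions are on mm9 in 7 files and on mm8 in that of M12, which took the mm9 positions by probe name.

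Log2 ratios were computed from the processed intensities, without control and outlier-flagged spots, averaged per probe and centred on each array's autosomal median. Chromosomes were segmented by penalised least squares (penalty 6, values winsorised at 3 SD, at least 3 positions, steps under 0.15 merged). Density is the number of array positions within 500 kb. Windows are means of 10 positions, fitted with limma 3.58.1 (R 4.3.3, Benjamini-Hochberg adjustment over 22135 windows). Other steps used numba 0.67.0, scipy 1.17.1, pandas 2.3.3, numpy 2.4.6 and matplotlib 3.10.9 under Python 3.11.15. Segmentation and limma were tested on simulated data. The windows named are the 3 highest and 3 lowest in M12.53, every call in the region, and up to 10 windows past the limma threshold.

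The members, lists and tests were chosen with earlier results of these data known. The arrays give no read depth, and their number limits the precision. Errors of single arrays are standard errors over neighbouring positions, which are not independent and do not measure repeat hybridisation. Mean spot signals were not used here, so normexp background correction (offset 50), tried as an alternative, was run on median spot signals. Other alternatives were mode centring, density correction, filters, call settings, window size, blocks and leaving out each array. The gene table and promoters are RefSeq's on GRCm38.p6, and no coordinate was moved between builds.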

Additional observations from a re-analysis of the deposited data

Results flagged for a closer look

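Within the 4 secondary T-LBL, M12.53 stood far from the other 3 in the stretch of 48 positions called in M12.53 only. Its log2 ratio there was 0.6823, and the gap to the next array made up 0.94 of the whole range. Its sample dye there deviated by 0.5846 from the other arrays, with a gap of 0.91 of the range. The reference dye of the same stretch was not among the values that stood apart. Of 18 sets of 4 values looked at, only these 2 stood apart in this way. The stretch was cut out because M12.53 alone had a call there, so the choice fixed this outcome, and the rate of about 1 in 20 that chance gives for sets not chosen this way does not apply. The ratio contains the sample dye, so the values are not separate.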

How the results depend on the processing

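The M12.53 call was made under all 9 alternatives with mean log2 ratios of 0.47 to 0.50 over 7. A penalty of 3 split it into 2 calls, at 0.75 over 40 positions and 0.45 over 351. The M12 call was lost (0 calls) at a threshold of 0.4, which lies above its mean of 0.26, and after density correction. With that correction the mean of M12 over the M12.53 call was 0.14. The other 7 alternatives kept the M12 call. With normexp its mean was 0.36, and M12 had 0.31 in place of 0.22 over the M12.53 call. The excess of M12.53 over stretches of equal density was 0.5038 over its call in the main setting and 0.5383 with normexp. In the main setting it was 0.6851 in the M12.53-only stretch and -0.0755 in the M12-only stretch. In the 6 arrays outside the choice, the mean turned positive with normexp (ratio 0.0331, minus flanks 0.0105, minus equal density 0.0186), and minus equal density also with bright reference spots only (0.00907), without M10 (0.000563), M7 (0.00641), M9 (0.0136) or M12.50 (0.00949). Without M9 the ratio and the value minus flanks turned positive too (0.000892 and 0.00152). Leaving out each array gave -0.0469 to 0.000892, -0.0259 to 0.00152 and -0.0236 to 0.0136 for the 3 measures; no adjusted p fell under 0.375. Autosomal windows called in the 5 lymphomas by limma (2) became 0 with M10 added, the origin as a random block, mode centring or density correction, 1 with 20 positions a window or bright reference spots, 25 with normexp, 12973 with array weights (37 in the region, weights that did not converge), and 0 to 3455 (0 to 7 in the region) without each array. Between groups the 20 became 0 with all 7 lymphomas, 394 with the scan block (8 in the region), and 10 to 4891 (0 to 10 in the region) without each array. The causes were not tested. With the scan block, M9 was the only primary array that entered the difference. Of 452 alternative values, 364 counted as unchanged, within a margin set for each kind of value. Of the others, 12 were reversed, and 25 values of the main results and 51 further values moved by more than the margin. The slide block could not be fitted, since no residual degree of freedom was left. No paired analysis was possible because the replicate numbers run over different mice. Signals of M7 near background and 1 array for each DNA limit all values.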

Other observations

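The 10 densest stretches elsewhere on the autosomes with as many positions as the shared stretch were looked at after the values were seen. M12 and M12.53 had opposite signs in 9 of the 10, and M12 and M9 in all 10. The densest, chr10:127282349-129075637, with 197 positions within 500 kb, had a log2 ratio of 0.02 in M12 and 0.00 in M12.53. The next, chr7:51641422-53566034, had 0.18 in M12 and -0.12 in M12.53. M12 was below 0 in 4 of the 10, and M12.53 was above 0 in those 4. They were chr2:87066344-88979287 (-0.15 in M12 and 0.05 in M12.53), chr7:110009855-112041221 (-0.08 and 0.06), chr2:85088522-87059280 (-0.10 and 0.07) and chr9:38246366-40277860 (-0.09 and 0.07). Dense stretches thus lay on both sides of 0 in M12, although its ratio rose with density over all stretches. These 4 were among the 50 stretches of like density used for the shared stretch, which were matched on density alone and not on base composition. The highest of the 10 in M12.53 was 0.07. The chromosome 10 shared stretch, with 0.26 and 0.45, was thus positive on both arrays, as was the densest of the 10. These stretches share their arrays and their density and are no replicates of the region.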
